A study of Mus musculus with 6 samples.

Results

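Isolated SP1 sites were listed binding sites of the transcription factor SP1 that had no other listed site on the same chromosome starting within 50 kb on either side. They were chosen by position alone from a table of 9001 high-confidence SP1 sites, sorted by chromosome and start, and the first and last listed site of each chromosome was left out. The rule gave 679 isolated sites, or 7.54% of the table, of which 395 lay on chromosome 1, 252 on chromosome 10 and 32 on the listed part of chromosome 11. The other 8322 listed sites served for comparison. Each site is 500 bp wide and its position is given on the mm10 mouse build.

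The study belongs to work on the apparent binding affinity of transcription factors across the genome. Accessibility was measured by ATAC-seq, in which the Tn5 transposase cuts open DNA and inserts adapters there. One group was 3 libraries of R1 mouse embryonic stem cells (ESC), a line of cells that can form all tissues of the embryo. The other was 3 libraries of neural progenitor cells (NPC), dividing cells of the neural lineage, whose titles also carry the name R1. No treatment or other genotype is named for either group. Whether replicate libraries stem from separate cultures is not said in the labels. Every p-value therefore reflects only how these libraries spread, and that spread may be technical.

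SP1 is a zinc-finger activator made in most cells, and it binds the GC box of many housekeeping promoters, often at several sites in the same CpG island. Binding sites that stand alone, away from genes and from other sites, often lie in chromatin that is open in some cell types and closed in others. Accessibility at such a site can come from factors other than SP1, and a listed site need not be bound in both cell types.

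Only 30 isolated sites covered a base of a protein-coding gene's promoter window, taken as 250 bases before to 50 bases after the gene start. The 5 windows printed here come from the RefSeq sequences of GRCm38.p6, each 5′ to 3′ on the strand of its gene, with GC boxes in capitals (GGGCGG, or CCGCCC for the other strand). They were chosen to set isolated promoters that fell in NPC (Sphkap, Lama2) beside others. These were 2 that rose slightly, 1.60-fold each (Ascc3, Vta1), and the isolated site of highest signal (Slc19a2). The window of Dnajb3, the largest fall at a gene end, has 19 CpG and is not printed. The windows are chr1:83408151-83408450 on the minus strand for Sphkap, chr10:27616893-27617192 on the minus strand for Lama2, chr10:50592419-50592718 on the plus strand for Ascc3, chr10:14705440-14705739 on the minus strand for Vta1 and chr1:164248796-164249095 on the plus strand for Slc19a2.
Sphkap promoter: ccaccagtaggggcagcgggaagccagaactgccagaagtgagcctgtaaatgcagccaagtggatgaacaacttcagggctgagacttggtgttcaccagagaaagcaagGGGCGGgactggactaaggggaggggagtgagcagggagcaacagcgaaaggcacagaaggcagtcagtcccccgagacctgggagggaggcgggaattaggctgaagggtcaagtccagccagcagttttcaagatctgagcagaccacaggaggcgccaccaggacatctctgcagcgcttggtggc
Lama2 promoter: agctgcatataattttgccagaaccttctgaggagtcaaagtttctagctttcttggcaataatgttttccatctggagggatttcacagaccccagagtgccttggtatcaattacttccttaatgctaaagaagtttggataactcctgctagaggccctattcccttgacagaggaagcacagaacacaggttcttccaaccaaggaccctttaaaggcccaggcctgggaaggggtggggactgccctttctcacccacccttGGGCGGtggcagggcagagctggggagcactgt
Ascc3 promoter: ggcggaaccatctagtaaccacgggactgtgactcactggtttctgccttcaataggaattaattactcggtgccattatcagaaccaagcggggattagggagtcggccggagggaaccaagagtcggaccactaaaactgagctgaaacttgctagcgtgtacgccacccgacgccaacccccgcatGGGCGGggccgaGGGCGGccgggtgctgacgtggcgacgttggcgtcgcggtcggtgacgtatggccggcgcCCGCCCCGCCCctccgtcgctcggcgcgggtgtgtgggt
Vta1 promoter: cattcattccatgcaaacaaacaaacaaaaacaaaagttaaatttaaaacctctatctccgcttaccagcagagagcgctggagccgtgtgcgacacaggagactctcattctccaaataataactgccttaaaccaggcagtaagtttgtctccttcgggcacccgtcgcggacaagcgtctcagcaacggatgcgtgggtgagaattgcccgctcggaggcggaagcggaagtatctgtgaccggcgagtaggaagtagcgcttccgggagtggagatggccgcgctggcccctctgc
Slc19a2 promoter: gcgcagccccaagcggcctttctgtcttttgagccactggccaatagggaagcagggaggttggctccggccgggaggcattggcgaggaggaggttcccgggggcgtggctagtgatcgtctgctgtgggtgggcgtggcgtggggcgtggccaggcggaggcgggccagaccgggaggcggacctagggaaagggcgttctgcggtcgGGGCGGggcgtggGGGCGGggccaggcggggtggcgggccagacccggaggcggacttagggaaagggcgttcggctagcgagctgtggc

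The Sphkap and Lama2 windows hold 1 GC box each, with 7 and 1 CpG dinucleotides and a GC content of 59.0% and 50.3%. The Ascc3 window holds 4 boxes, counting overlapping matches, with 33 CpG and 63.7% GC, and the Slc19a2 window holds 2 boxes, with 28 CpG and 72.0% GC. The Vta1 window holds none of these letters in a GC box, but 21 CpG and 53.3% GC. Over the 30 windows at isolated sites, 22 (73.3%) hold at least 1 GC box on either strand, against 659 of 969 windows (68.0%) at other listed sites and 11714 of 32851 windows (35.7%) in the whole RefSeq table. The whole RefSeq table also holds windows of non-coding genes, which the 30 leave out. A match describes the letters and is not a measured SP1 contact.

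Isolated sites closed more often than they opened between ESC and NPC. At a deposited adjusted p under 0.05, 116 of the 679 rose (17.1%, 95% Wilson interval 14.4 to 20.1) and 251 fell (37.0%, 33.4 to 40.7), while 312 were not called. Over all 9001 listed sites, 22.8% rose, 32.6% fell and 55.4% were called in either direction. The median log2 fold change, NPC over ESC, was -1.22 at isolated sites, which is 2.33-fold lower in NPC, with a 95% interval over sites of -1.52 to -0.86. Among the other listed sites the median was -0.24, with 1936 rises (23.3%) and 2683 falls (32.2%). The intervals cover counting error over sites, and neighbouring sites share the same 6 libraries, so they are not errors over replicates and the gap between the sets has no test. P-values were also recomputed from the deposited fold changes and standard errors. With these, 28.6% of isolated sites fell and 13.4% rose, against 26.5% and 18.8% of all listed sites. All values were then centred on the median of the table, which lies at -0.29, with p-values recomputed in the same way. Then 24.2% of isolated sites fell and 16.1% rose, against 22.8% and 23.1% of all listed sites. On that scale the share that fell was close to that of all sites, and the share that rose was lower.

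The called changes were large, as they were over all listed sites. The 116 rises had a median log2 fold change of 3.43 (10.8-fold) and the 251 falls one of -3.40 (10.5-fold lower). Over all listed sites these medians were 3.03 and -3.24. At low signal only large changes could be called. Beyond 1 in size were 109 rises and 247 falls. Over all isolated sites the values ran from -6.84 to 6.71, with quartiles of -3.04 and 0.72. The fold changes in the authors' deposited table lie on curved bands when set against mean signal, and the extremes widened with signal, from -4.34 and 4.38 in the lowest of 4 signal classes to -6.84 and 6.71 in the highest. The plot of change against signal shows those bands.

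**Figure D1:**
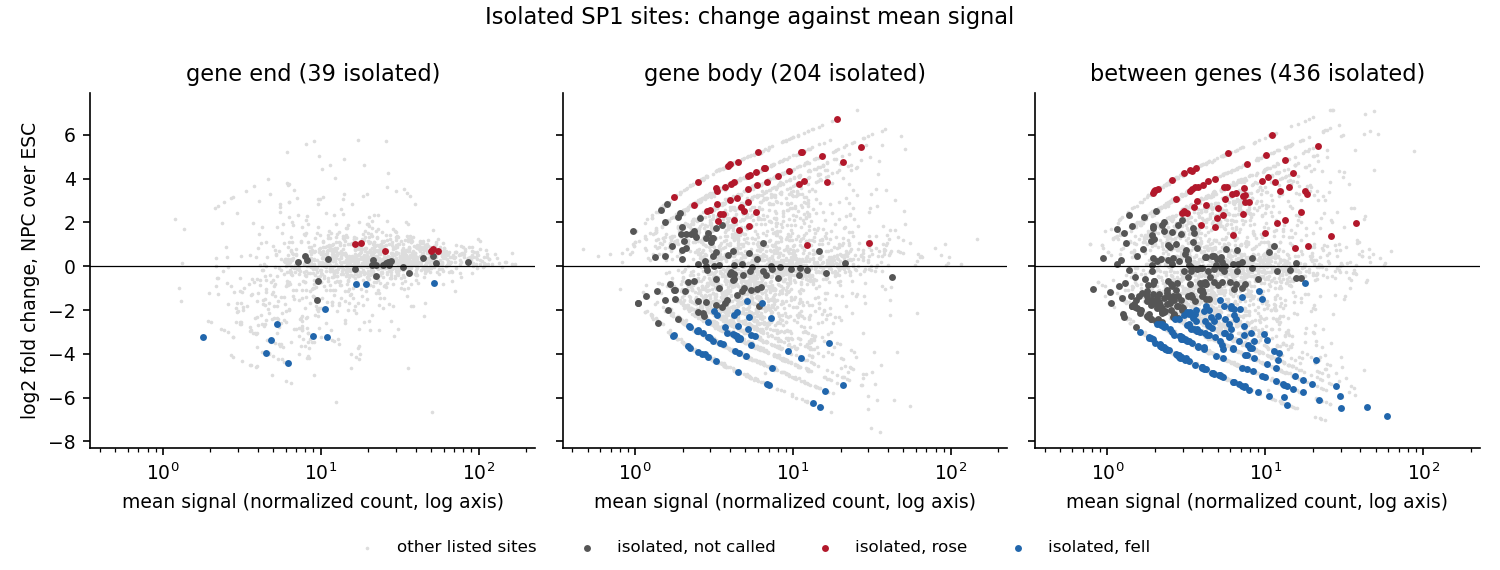
Log2 fold change, NPC over ESC, against the mean signal (normalized count, log axis) for listed SP1 sites at gene ends, in gene bodies and between genes. Coloured points are the 679 isolated sites, of which 116 rose (red) and 251 fell (blue), and pale points are the other listed sites; the lower edge of the cloud between genes is dense with falls.

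Signal was low at isolated sites, and that limits what could be called. The median of the mean normalized count was 3.85 (quartiles 2.49 and 6.57, range 0.81 to 85.6), against 6.01 at the other listed sites, and the median standard error of the log2 fold change was 1.14 against 0.88. All listed sites were cut into 4 equal classes by mean signal, at 3.38, 5.78 and 11.4. In the lowest class lay 293 isolated sites, or 43.2% of them. The smallest change called in that class was 2.05 on the log2 scale, against 0.68 in the highest class, and 36.2% and 69.4% of isolated sites were called there. A site of low signal that was not called may therefore have changed by several fold.

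The sets were also compared within each signal class. In the lowest class 29.0% of isolated sites fell and 7.17% rose, against 24.2% and 13.2% of other listed sites. In the highest class, with 85 isolated sites, 35.3% fell and 34.1% rose, against 22.9% and 32.7%. In the class above the lowest the sets were close, with 44.3% against 45.0% falling and 20.8% against 21.0% rising. In the class below the highest, 46.6% against 36.7% fell and 23.7% against 25% rose. Spearman's rho between signal and log2 fold change over the 679 isolated sites was 0.01, as a description of sites that share the same libraries.

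The chromosomes differed. On chromosome 1, 164 of 395 isolated sites fell (41.5%) and 59 rose (14.9%), with a median log2 fold change of -1.54, against 32.9% and 23.8% of other listed sites there. On chromosome 10, 72 of 252 fell (28.6%) and 51 rose (20.2%), with a median of -0.54, so the share that fell was below the 32.2% of other listed sites on that chromosome. The 32 on chromosome 11 had 15 falls (46.9%) and 6 rises (18.8%), against 26.1% and 32.6% of the others there. The share that rose was below that of other listed sites on all 3 chromosomes.

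Isolated sites differed by their place relative to genes. A site was called a gene end when the start or end of a protein-coding gene was at most 1000 bp from its midpoint. The rest lay in a gene body or between genes. By this rule 5.74% of isolated sites were gene ends, 30.0% lay in gene bodies and 64.2% between genes, against 17.3%, 41.3% and 41.4% of the others. The median isolated site lay 121 kb from the nearest end of a protein-coding gene, against 17.6 kb for the others. Exon and intron positions were not analysed here.

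At gene ends, 39 isolated sites had a median signal of 21.2 and a median log2 fold change of 0.07. Of them 11 fell (28.2%) and 6 rose (15.4%), while over all 1481 listed sites at gene ends 16.1% fell and 24.1% rose. The rises were small, with a median of 0.73 (1.66-fold), and the falls large, with a median of -3.19 (9.10-fold lower). The balance depended on the scale: with recomputed p-values 5 rose and 8 fell, and with values also centred 9 rose and 7 fell.

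All 17 gene ends that were called are named here, beyond the 8 that the naming rule gives, and the added ones were chosen after their values were seen. In the authors' deposited table Sphkap, an anchoring protein for protein kinase A, had -3.19 ± 0.74 (log2 fold change ± SE, adjusted p = 7.66e-05). Lama2, the laminin chain of muscle and nerve basement membranes, fell by 3.38 ± 1.11 on the log2 scale there. Tmeff2, a transmembrane protein with follistatin-like domains, stood at -3.98 ± 1.23 and Nmbr, the neuromedin B receptor, at -2.66 ± 0.89 in the authors' deposited table. The largest fall at a gene end was at Dnajb3, a testis-expressed chaperone gene within the Ugt1a cluster of glucuronidation enzymes, with -4.41 ± 1.19 in the same authors' deposited table.

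Rfx6, a transcription factor of pancreatic islet and gut endocrine cells, had -1.96 ± 0.59 in the authors' deposited table, and Crygf, a crystallin of the eye lens, had -3.22 ± 1.60. The end of Mfsd4b4, a member of a transporter family, had -3.23 ± 0.68 there (adjusted p = 1.37e-05), the lowest adjusted p of the 39. The 3 smallest falls were at Nifk, a nucleolar protein that binds Ki-67, at Vstm2a, and at Ptgs2, the inducible cyclooxygenase. The authors' deposited table gives them -0.76 ± 0.25, -0.82 ± 0.40 and -0.82 ± 0.43. The call at Nifk was lost when values were centred, with an adjusted p of 0.109. With recomputed p-values 8 falls and 5 rises at gene ends were left, and the calls at Crygf (adjusted p = 0.0880), Vstm2a (0.0816), Ptgs2 (0.103) and Ttll4 (0.0771) were lost.

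The 6 gene ends that rose had changes near 1 or below on the log2 scale. Cdc42bpa, a kinase that acts with the small GTPase Cdc42, rose by 1.04 ± 0.42, and Rims1, a scaffold of the presynaptic active zone, by 1.02 ± 0.44 in the authors' deposited table. Ascc3, a DNA and RNA helicase, rose by 0.68 ± 0.25, Vta1, a cofactor in endosomal sorting, by 0.68 ± 0.27, and Ttll4, a tubulin glutamylase, by 0.70 ± 0.34, per the authors' deposited table. The remaining rise, 0.76 ± 0.28 in the authors' deposited table, lay at the predicted gene Gm11992 within Sun3.

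The 22 gene ends that were not called included some that were measured precisely. Slc19a2, a thiamine transporter, had the highest signal of any isolated site, 85.6, and 0.20 ± 0.20 as its log2 fold change (adjusted p = 0.364, the authors' deposited table). With values centred it was called as a rise, at 0.48. Orc2, a subunit of the origin recognition complex, had 0.47 ± 0.25, Pwp1, a ribosome-assembly protein, 0.07 ± 0.30, and Cyp20a1, a cytochrome P450, -0.03 ± 0.26 in the authors' deposited table. These standard errors are well below the median of 1.14 for isolated sites.

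The promoter windows differed in base composition along with the calls. The 8 windows at isolated sites that fell had a median of 11.5 CpG and 56.3% GC, the 6 that rose had 19.0 CpG, and the 16 that were not called had 24.5 CpG. A GC box was found in 6 of the 8, 3 of the 6 and 13 of the 16. At other listed sites, the 120 windows whose site fell had a median of 13 CpG and the 270 whose site rose had 26. Low CpG at falls was thus not limited to isolated sites. A GC box was found in 50.8% of those 120 and 70.7% of those 270, the reverse of the order at isolated sites. The 5 windows whose site fell beyond 1 on the log2 scale had a median of 7.0 CpG and 53.7% GC, and 4 of them held a GC box. All RefSeq windows, those of non-coding genes included, had medians of 7.0 CpG and 52.7% GC. The groups are small and overlap, with 1 to 19 CpG in those 5 windows, and no test was made.

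Gene bodies held 204 isolated sites, and these were nearly balanced, with 48 rises (23.5%) and 58 falls (28.4%). Over all 3637 listed sites in gene bodies, 24.7% rose and 33.2% fell. The median was -0.24. With recomputed p-values 36 rose and 43 fell, and with values also centred 41 rose and 39 fell, with a median of 0.04. Where the mean signal reached the median of all listed sites, 51 isolated sites in gene bodies had more rises (39.2%) than falls (23.5%), against 32.0% and 33.8% of the others. Below that signal, 153 isolated sites had fewer rises (18.3%) than falls (30.1%), against 18.8% and 33.2% of the others.

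Long genes that held at least 3 isolated sites moved in different directions. Ctnna3, which codes for a catenin that links cadherins to the cytoskeleton, held 8, of which 5 rose and none fell, with a median log2 fold change of 2.59. In order along the gene, the authors' deposited table gives 2.38 ± 1.09, 4.50 ± 1.18, 3.54 ± 1.10, 1.12 ± 0.99, 3.73 ± 1.25, 2.80 ± 1.45, -2.42 ± 1.56 and -1.56 ± 0.98, and the fourth and the last pair were not called. The first 3 of these lie also in Lrrtm3, a gene for a synaptic adhesion protein nested inside Ctnna3, so the sites count for both genes. The 13 listed sites of Ctnna3 that were not isolated had 3 rises and 4 falls and a median of -1.23. Nav3, a microtubule-binding protein of growing axons, had 2 rises among 3 isolated sites, and Syne1, a giant protein of the nuclear envelope, 1 among 4 with a median of 2.41. The 9 other listed sites in each of these genes also had 3 rises and no fall.

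In other long genes falls outnumbered rises. Cntnap5b, a neurexin-family adhesion protein, held 3 isolated sites that all fell, with -3.88 ± 1.24, -6.42 ± 1.14 and -2.21 ± 1.05 in the authors' deposited table. Its 3 other listed sites had 2 falls and a median of -3.16, so falls there were not limited to isolated sites. Cntnap5a, its relative, had 2 falls among 3, and 3 falls among its 7 other listed sites. Nkain2, which codes for a partner of the sodium pump, had 4 falls and 1 rise among 9, with a median of -1.10, and Dpp10, an auxiliary subunit of potassium channels, had 3 falls and 2 rises among 7. Other listed sites had 1 rise and no fall among 2 in Nkain2, and 4 falls and 1 rise among 12 in Dpp10. Erbb4, the neuregulin receptor, had 1 fall of -4.21 ± 0.88 among 4 per the authors' deposited table, and its 5 other listed sites had 1 rise and 1 fall. With p-values recomputed from the deposited fold changes and standard errors, 3 of the 5 rises in Ctnna3 and 2 of the 3 falls in Cntnap5b were called.

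Between genes, falls outnumbered rises by far. Of 436 isolated sites there, 182 fell (41.7%) and 62 rose (14.2%), with a median log2 fold change of -1.70. Over all 3883 listed sites between genes 38.3% fell and 20.5% rose, and the 3447 that were not isolated had a median of -0.78. The sets were also split at the median signal of the table. At or above it, 66 of 117 isolated sites fell (56.4%, 47.4 to 65.0), with a median of -1.95, against 40.4% of 1457 others with a median of -0.27, while 26.5% and 28.0% rose. Below that signal, 36.4% of 319 isolated sites and 36.1% of the others fell, while 9.72% and 16.3% rose.

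None of the 20 largest changes lay at a gene end, taken as the 10 largest called rises and falls with at least the median signal and 1 site per nearest gene. Mean signal at these sites ran from 5.81 to 58.7 normalized counts. With such folds the lower group had counts near 0, so each fold is imprecise and its size is limited by signal. The largest rise was inside Prrx1, a homeobox gene of limb and craniofacial mesenchyme, at chr1:163257234-163257734, with 6.71 ± 1.13 (105-fold, adjusted p = 1.52e-08) in the authors' deposited table. Inside Esrrg, an orphan nuclear receptor of tissues with high energy demand, the change in the authors' deposited table was 5.42 ± 0.84. Kcnk2, a mechanosensitive potassium channel, held a rise of 5.05 ± 1.00 there. A site 97.2 kb from Mgat5, a glycosyltransferase that branches N-glycans, rose by 5.49 ± 0.99, and one 424 kb from Epha4, a receptor for ephrins in axon guidance, by 5.06, both in the authors' deposited table. All 10 rises were on chromosome 1 but for a site 214 kb from Cited2, a transcriptional coregulator, on chromosome 10 with 5.15 ± 1.19 per the authors' deposited table.

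The largest fall lay 835 kb from Cntnap5a at chr1:114849626-114850126, with -6.84 ± 0.99 (adjusted p = 5.69e-11) in the authors' deposited table. It also had the second-highest signal of any isolated site, 58.7, and its nearest listed site was 208 kb away. A site 314 kb from Ccer1, a gene of the male germ line, at chr10:98008361-98008861, fell by 6.44 ± 0.98 with a signal of 43.9 in the authors' deposited table. Falls of -6.42, -6.31 and -6.26 in the authors' deposited table lay inside Cntnap5b, 131 kb from B020011L13Rik and inside Zranb3, a helicase that restarts stalled replication forks. Falls of -5.97 and -5.92 in the authors' deposited table lay 109 kb from Kcnt2, a sodium-activated potassium channel, and 47.6 kb from Cdc73, a subunit of the PAF complex of transcription. A rise of 5.97 ± 1.15 in the authors' deposited table lay in the same stretch between Kcnt2 and Cdc73, 523 kb from Cdc73, so opposite changes of that size shared a stretch. The plot of the largest changes gives the 10 rises and 10 falls with their errors.

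**Figure D2:**
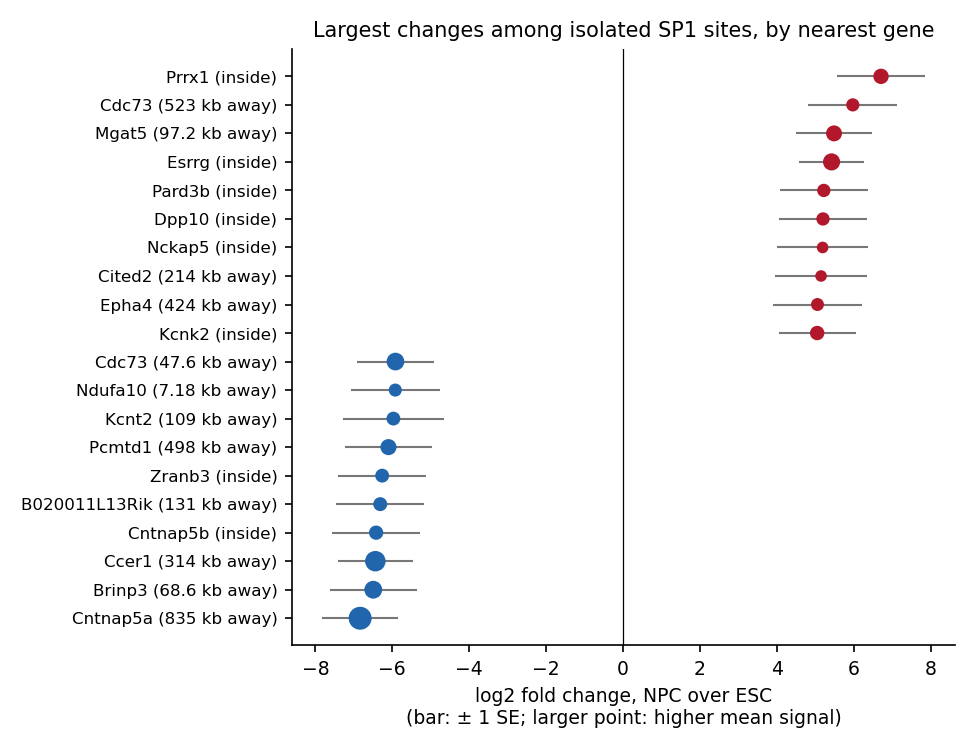
Log2 fold change, NPC over ESC, of the 10 largest called rises (red) and 10 largest called falls (blue) among isolated SP1 sites with at least the median signal, each labelled with its nearest protein-coding gene and the distance to that gene's end. Bars are ± 1 SE from the authors' deposited table and larger points have higher mean signal; the extremes are 6.71 inside Prrx1 and -6.84 at 835 kb from Cntnap5a.

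Over all places, the share of rises was lower and that of falls higher beyond 100 kb from the next listed site than at 50 to 75 kb. Among the 360 isolated sites whose nearest listed site was 50 to 75 kb away, 71 rose (19.7%) and 118 fell (32.8%), with a median log2 fold change of -0.74. From 75 to 100 kb, 24 of 140 rose (17.1%) and 53 fell (37.9%). Beyond 100 kb, 21 of 179 rose (11.7%) and 80 fell (44.7%), with a median of -1.89. Sites 20 to 50 kb from the next, just short of the rule, had 21.6% rises, 31.7% falls and a median of -0.34.

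Between genes alone, 16.6% rose and 37.3% fell at 50 to 75 kb, 16.7% and 44.0% at 75 to 100 kb, and 12 of 135 rose (8.89%) and 64 fell (47.4%) beyond 100 kb. Over all places, median signal was 3.99 at 50 to 75 kb, 4.18 at 75 to 100 kb, 3.69 at 100 to 200 kb and 3.18 beyond 200 kb. Between genes it was 3.73, 3.37, 3.47 and 3.11 in the same bins. The part of signal in the shares was not tested. Per site the relations were weak. Spearman's rho over the 679 sites was -0.08 between distance and signal and -0.11 between distance and log2 fold change, given as a description. With recomputed p-values, the share that fell beyond 100 kb was 35.2%, against 26.5% of all listed sites. With values also centred it was 29.1% against 22.8%.

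**Figure D3:**
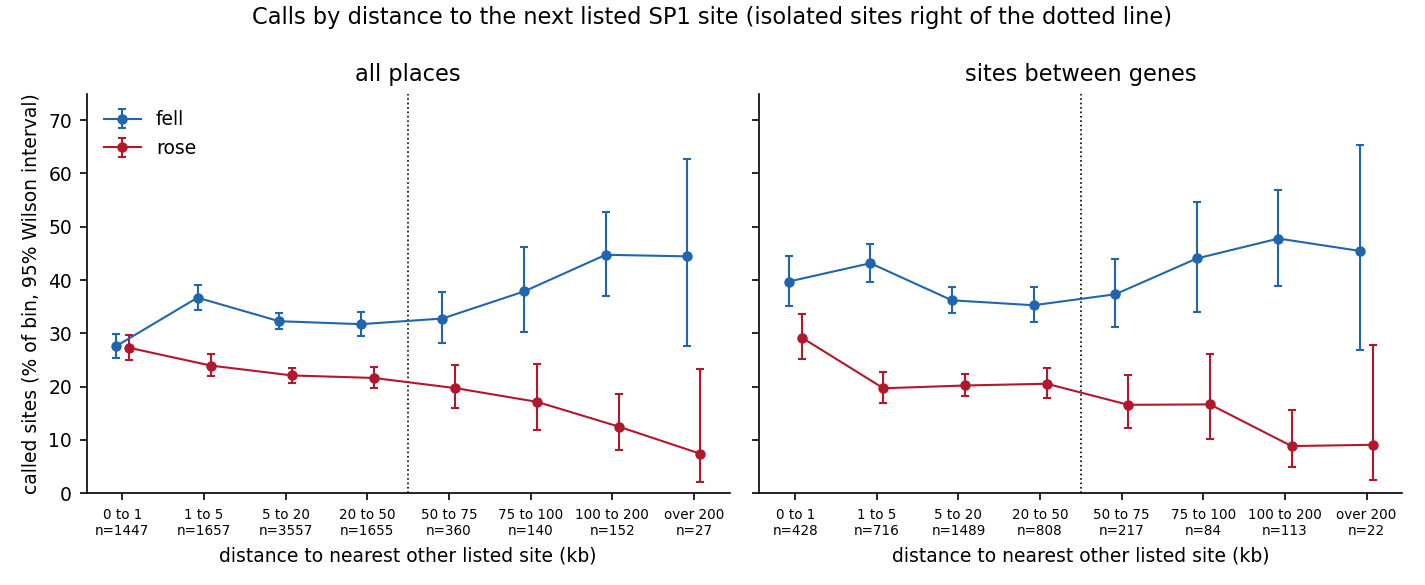
Share of listed SP1 sites called as rises (red) or falls (blue) by distance to the nearest other listed site in kb, over all places and between genes alone, with 95% Wilson intervals over sites and the number of sites under each bin. Right of the dotted line are the isolated sites, where the share of falls over all places goes from 32.8% at 50 to 75 kb to 44.4% beyond 200 kb.

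The 6 sites nearest the boundary of the rule are given as values. Just inside it lay a site near Rev1 at 50.028 kb, with a log2 fold change of -1.80 ± 0.82, and a pair 50.058 kb apart between Cdh19 and Dsel, with -3.94 ± 0.78 and -3.76 ± 1.43, all in the authors' deposited table. Just outside lay sites in Rasal2 at 49.966 kb, at Ranbp2 at 49.913 kb and in Fam184a at 49.882 kb, with 1.57 ± 0.97, 0.44 ± 0.28 and 4.10 ± 1.34 per the authors' deposited table. The 3 inside were called as falls, and of the 3 outside the site in Fam184a was called, as a rise. The most isolated site of all had its nearest listed site 489 kb away, in the stretch between Rgs18 and Brinp3, and had -2.80 ± 1.00 in the authors' deposited table. The next 4 in isolation, at 431, 380, 365 and 339 kb, had -0.83 ± 0.78, -1.93 ± 1.38, -1.42 ± 1.01 and -1.73 ± 1.26 there, all below 0 and none called in the authors' deposited table. These 5 sites had signals of 2.18 to 4.61, in the lower part of the range.

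Distance to genes followed a different order. Between genes, the share of isolated sites that fell was 47.6% at 1 to 10 kb from a gene end, 41.5% at 10 to 50 kb, 40.0% at 50 to 200 kb, 44.2% at 200 to 500 kb and 40.2% of 82 beyond 500 kb. Over the same bins up to 500 kb, 40.6%, 34.7%, 37.1% and 37.0% of the other listed sites fell. In the same order, beyond 500 kb included, 14.3%, 17.0%, 16.9%, 14.2% and 7.32% of isolated sites rose. Median signal was 2.65 beyond 500 kb. Of the other listed sites 17.3%, 20.9%, 24.8%, 25.4% and 14.7% rose, so their share was also lowest beyond 500 kb. Beyond 500 kb the 190 other listed sites fell more often than the isolated ones, at 53.2%, with a signal of 3.93. In gene bodies 200 to 500 kb from a gene end, deep inside long genes, 10 of 29 isolated sites rose (34.5%) and 6 fell (20.7%), against 24.4% and 31.5% of 127 other listed sites. Other gene-body bins went both ways. At 1 to 10 kb 13.8% rose against 21.8% of others, and at 10 to 50 kb 30.4% against 24.4%. At 50 to 200 kb, with 94 isolated sites, 19.1% rose against 29.9%. Beyond 500 kb 2 of 6 isolated sites and 2 of 13 others rose.

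Part of the falls were gathered in long stretches without protein-coding genes. Stretches were taken between neighbouring protein-coding genes where at least 6 isolated sites lay, and this number was set after results were known. There were 14 of them, with 124 isolated sites, of which 61 fell (49.2%, 40.6 to 57.9) and 5 rose (4.03%), and the median log2 fold change was -2.20. All 14 stretches had a negative median and 10 of them had no rise. With recomputed p-values there were 45 falls and 3 rises. With values also centred, all 14 medians stayed below 0, with 39 falls and 4 rises. The other 188 listed sites in the same stretches had 113 falls (60.1%) and 9 rises (4.79%), so the falls there were shared by sites that were not isolated. Outside the stretches, 314 isolated sites between genes had 123 falls (39.2%) and 57 rises (18.2%).

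The stretch between Frk, a Src-family kinase, and Amd2, a gene of polyamine synthesis, at chr10:34611233-35708690 held 9 isolated sites and all of them fell. In order their log2 fold changes in the authors' deposited table were -3.79, -3.06, -3.37, -5.76, -4.68, -2.69, -4.97, -3.72 and -2.89, with standard errors of 0.76 to 1.49. No value lies near 0, and the weakest call had an adjusted p of 0.0446. With recomputed p-values 7 of the 9 were called. Of the 6 other listed sites there, 4 fell and 1 rose.

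Between Rgs18, a regulator of G-protein signalling in blood cells, and Brinp3, a neural protein induced by retinoic acid, all 6 listed sites were isolated. Their log2 fold changes in the authors' deposited table were -3.63 ± 1.47, -2.19 ± 1.11, -2.80 ± 1.00, -0.15 ± 0.68, -5.48 ± 0.84 and -6.49 ± 1.13, and the fourth was not called. The last pair had signals of 28.2 and 30.0, high for isolated sites. Brinp3 to Pla2g4a, the next stretch, held 14 isolated sites with 6 falls, no rise and a median of -2.16. Its 10 other listed sites had 8 falls, no rise and a median of -3.53. The stretch from Kcnt2 to Cdc73 was mixed, with 4 falls and 2 rises among 9 isolated sites and a median of -0.49. Its 15 other listed sites had 6 falls, 1 rise and a median of -2.01.

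**Figure D4:**
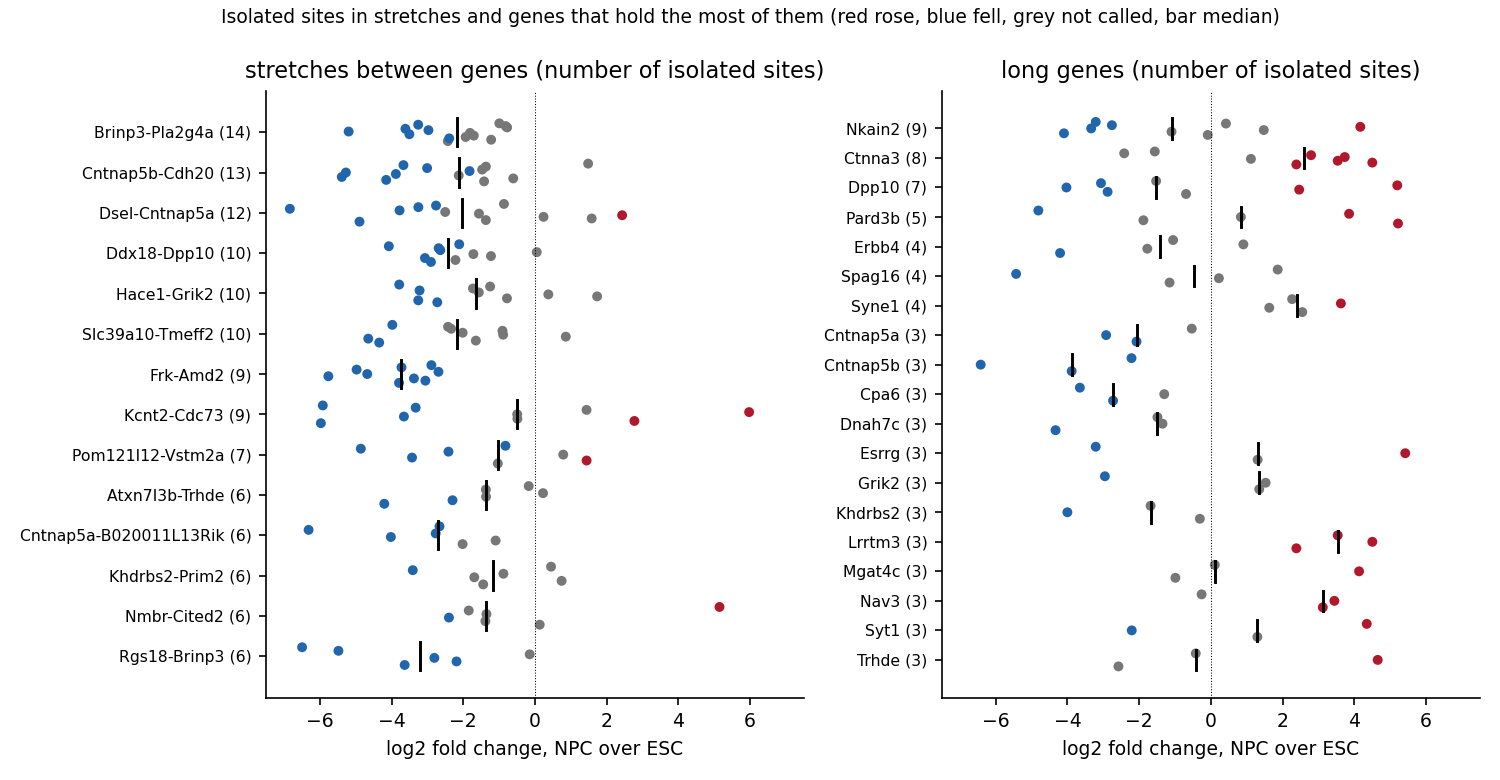
Log2 fold change, NPC over ESC, of each isolated SP1 site in the 14 stretches between protein-coding genes that hold at least 6 of them, and in the genes with at least 3, with medians as bars, with called rises in red and called falls in blue. In the stretches 61 of 124 sites fell and 5 rose, while Ctnna3 has 5 rises and no fall among 8.

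Isolated sites that fell often had a nearest listed site that fell too, at over 50 kb. Of the 679 pairs, 206 had both sites called, and in 137 of these (66.5%, 59.8 to 72.6) both moved the same way. Of 139 isolated sites that fell with a called neighbour, 106 (76.3%) had a neighbour that fell too. Of 67 that rose, 31 (46.3%) had a neighbour that rose. For listed sites 20 to 50 kb apart these shares were 65.0% for falls and 54.8% for rises. Falls were more frequent than rises, so a matching neighbour is likelier for a fall, and that part was not tested. In 299 cases the neighbour was itself isolated, and a pair of isolated sites nearest each other counts from both sides.

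The share that moved the same way was not lower at longer distances in this range. It was 60.6% for listed sites 20 to 50 kb apart, 61.7% of 149 called pairs at 50 to 100 kb and 78.9% of 57 (66.7 to 87.5) beyond 100 kb. Beyond 100 kb, 40 of 46 falls (87.0%) and 5 of 11 rises (45.5%) were matched by the neighbour. Since falls were more frequent at those distances, pairs of falls would also be more frequent, and that part was not tested. Pairs under 0.5 kb apart, whose windows overlap and share reads, moved the same way in 99.5% of cases.

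**Figure D5:**
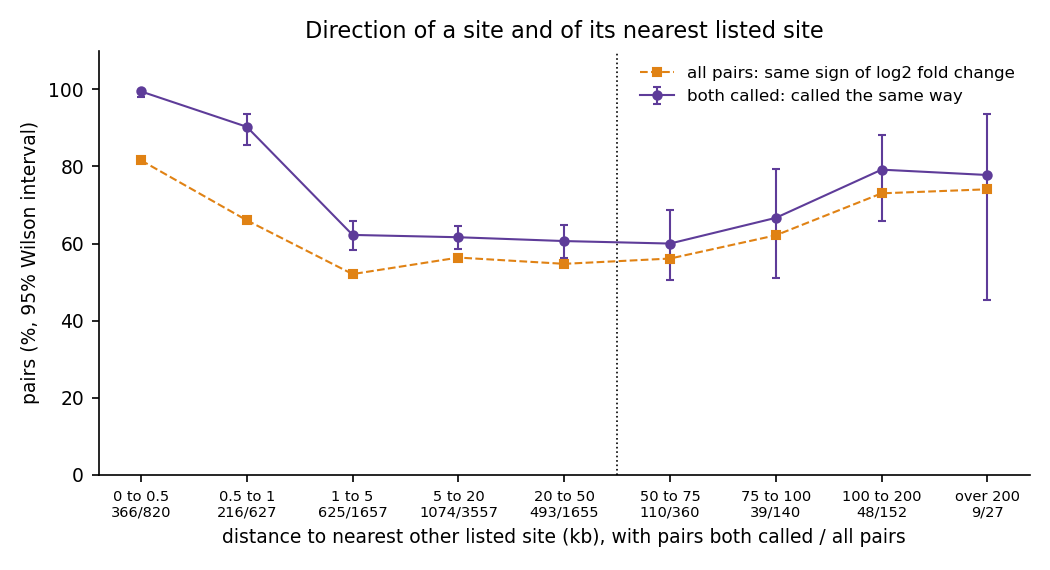
Share of listed SP1 sites whose nearest listed site moved the same way, by distance in kb: pairs with both sites called (circles, 95% Wilson intervals) and all pairs by sign of the log2 fold change (squares), with isolated sites right of the dotted line. For called pairs the share is 99.5% under 0.5 kb, 60.6% at 20 to 50 kb and 79.2% at 100 to 200 kb.

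No isolated site was assigned to the listed genes that mark either cell type. A site was assigned to a gene when it lay inside it, or when that gene's end was the nearest and within 50 kb. The pluripotency genes had 36 listed sites, none isolated, of which 24 fell and 4 rose, with a median log2 fold change of -3.07. The neural progenitor genes had 28 listed sites, none isolated, with 15 rises and 4 falls and a median of 1.68. Both lists moved in the direction of the labels ESC and NPC, and they were chosen with earlier results known. The germline list likewise had no isolated site and 11 listed ones. Isolated sites make up 7.54% of all listed sites, so lists this small would hold few by that share. Their absence from these lists was not tested.

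Neuronal genes had 23 isolated sites at 11 of their 16 genes, with 9 falls, 2 rises and a median of -1.08, against 60 falls and 34 rises among their 162 listed sites. Syt1, the calcium sensor of synaptic vesicle release, held a rise of 4.35 ± 1.02 in the authors' deposited table. That was 1 of 3 isolated sites inside Syt1, and another was called as a fall, at -2.21. The 8 other listed sites inside Syt1 had 1 rise and 5 falls, with a median of -1.60. Near Pcdh15, a protocadherin of inner-ear hair cells that is on the adhesion list too, a site at 25.7 kb had -4.97 ± 1.21 in the authors' deposited table. Genes of axon guidance and adhesion had 17 isolated sites at 8 of 16 genes, with 6 rises, 4 falls and a median of 0.33, against 39 rises, 49 falls and a median of -0.20 among their 163 listed sites. Of those 6 rises 5 lay in Ctnna3 and the other near Lama4, a laminin chain of vessel walls, with 2.93 ± 0.98 in the authors' deposited table.

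The remaining lists had few isolated sites. Signalling genes had 6, with 2 falls and no rise, both falls inside or near Erbb4, against 30 rises and 37 falls among 118 listed sites. A site at Eya4, a transcriptional coactivator of muscle and inner ear on the list for mesoderm and endoderm, fell by 3.40 ± 1.32 in the authors' deposited table. A site near Il10, an anti-inflammatory cytokine on the blood and immune list, rose by 3.96 ± 1.23 there. The glial list had a site at Glul, glutamine synthetase, which was not called, with -0.46 ± 0.34 in the authors' deposited table. ATAC-seq does not measure RNA, so expression of these genes was not analysed here.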

How the data were processed

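The members, gene lists and thresholds used here were chosen with earlier results of these data known. ATAC-seq libraries of 3 ESC and 3 NPC samples were compared by the authors at SP1 sites, and only their comparison table was used. Per the submitters' processing notes, BWA 2.1, Picard 2.23.8, MACS2 2.2.7, SAMtools 1.9, DESeq2 and the mm10 build were used, with no role stated. DESeq2's version and model, any Tn5 shift of the reads and the way SP1 sites were picked are not given in the sources, and a choice of sites in 1 cell type could tilt the balance of rises and falls.

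The mean signal is the column the authors deposited as the mean of normalized counts over libraries. The deposited log2 fold change is read as NPC over ESC from the table's name, with its standard error. The deposited p-value and adjusted p-value come from the authors' DESeq2 run. At all 679 isolated sites the p recomputed from the fold change and its standard error was at least the deposited p, with a median ratio of 2.47, so the fold changes may have been shrunk after testing. The table has no values per library, and depth per library is unknown here.

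Sites were taken as isolated by distance between starts, and 6 sites at the edges of listed chromosomes were left out, 3 of which met the distance. Calls used the deposited adjusted p under 0.05, adjusted by the authors over their own set of sites. Genes, of which 2326 protein-coding ones lie in the listed parts, came from the RefSeq table of GRCm38.p6. Named sites were the 10 largest called rises and falls with at least the median signal (1 per nearest gene), the 5 of highest signal, the 5 most isolated, the 8 called gene ends of lowest adjusted p, 3 on each side of the distance limit and up to 3 per gene list. Sites in stretches, long genes and runs were named after their values were seen. Alternatives were other distances (25 and 100 kb), an adjusted p under 0.01, a log2 change over 1, a minimum signal, recomputed p-values, centring, and other gene-end distances. The deposited p-values do not apply to centred values, so centred calls also used recomputed p-values. The scripts (Python 3.11.15, pandas 2.3.3, SciPy 1.17.1) were tested on simulated data.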

Additional observations from a re-analysis of the deposited data

How the results depend on the processing

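With isolation set at 25 kb, 357 of 1830 sites rose and 623 fell, with a median log2 fold change of -0.71 and with 35 rises and 38 falls at gene ends. At 100 kb, 21 of 179 rose and 80 fell, with a median of -1.89, and gene ends had 2 rises and 3 falls. An adjusted p under 0.01 left 2 rises at gene ends and a share of falls beyond 100 kb of 29.6%, and requiring a log2 change over 1 also left 2 rises at gene ends. Keeping sites at or above the lower quartile of signal left 386, of which 166 fell (43.0%) and 95 rose (24.6%). Their median was -0.79, and 54.7% fell beyond 100 kb. In the signal classes kept, from low to high, 45.0%, 36.7% and 22.9% of other listed sites fell. Recomputed p-values gave 35.2% falling beyond 100 kb. Over all listed sites these settings gave 23.2% falls at 0.01, against 24.7% of isolated sites, and 26.5% with recomputed p-values, against 28.6%. Centring, with recomputed p-values, gave 109 rises and 164 falls (24.2%, against 22.8% of all listed sites). It gave 7 falls at gene ends and 29.1% falling beyond 100 kb. Without the 14 stretches, an alternative added after seeing the data, the median was -0.77. In each of these, falls outnumbered rises among isolated sites as a whole. The other alternatives run, such as leaving out chromosome 11, keeping edge sites or moving the gene-end distance, kept the counts within 1.5 times.

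No paired analysis was possible because the deposited table has no column per library, and leaving out a library was not run for the same reason. Low signal is a limit: in the lowest of 4 signal classes an isolated site was called only beyond 2.05 on the log2 scale, so the count of sites that were not called is not a count of sites without change. Near Rev1 the call was lost at an adjusted p under 0.01, with recomputed p-values (0.0592) and with centring (0.115).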

Other observations

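Isolated sites between protein-coding genes but inside a gene for a long non-coding RNA were balanced: 7 of 31 rose and 7 fell, with a median log2 fold change of -0.24. The 405 in no such gene had 13.6% rises, 43.2% falls and a median of -1.79. Over all listed sites between genes, 20.5% rose and 38.3% fell. Other listed sites inside genes for long non-coding RNA were not analysed here.

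Of the 679 isolated sites, 453 lay in runs of at least 2 isolated sites with no other listed site between them, and 226 stood alone. Runs of at least 6 numbered 13, with 94 sites, 11 rises and 53 falls. Over all listed sites 22.8% rose and 32.6% fell. Of these runs 8 had falls and no rise, 1 had rises and no fall and 4 had both. The run with no fall was that of 7 from Lrrtm3 into Ctnna3, with 5 rises, and a run of 7 around A830018L16Rik had 3 rises and 1 fall. The runs named here were chosen after their values were seen. A run of 8 from Cdh19, a cadherin of Schwann cells, to Dsel, an enzyme of dermatan sulfate, had 6 falls, no rise and a median of -3.52. From B020011L13Rik to Nifk all 6 sites of a run fell, and the authors' deposited table gives them -2.77, -6.31, -2.66, -4.28, -3.67 and -0.76 (log2), the last at the Nifk promoter. A run of 6 in the cluster of interferon-inducible DNA sensors that holds Aim2 had 3 falls and no rise, and its site at Ifi202b had -3.52 ± 0.59 with a signal of 16.9 in the authors' deposited table.

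An isolated site at chr1:20677927-20678427 lay 583 bp from the hairpin of Mir206 and 4.34 kb from that of Mir133b, both known as microRNAs of muscle. In the authors' deposited table it rose by 4.06 ± 0.89 on the log2 scale (adjusted p = 2.12e-05). An isolated site that overlaps the hairpin of Mir6349 had -1.49 ± 0.89, and one 30 bp from Mir8114, at the Glul gene end, had -0.46 ± 0.34, neither called in the authors' deposited table.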
